A study of Mus musculus with 24 samples.

Results

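White adipose tissue (WAT) and brown adipose tissue (BAT) of male C57Bl/6J mice were compared for how gene expression differed between an EPA/DHA high-fat diet and a corn-oil high-fat diet. The quantity examined was the difference between tissues in that diet effect, that is EPA/DHA minus corn oil in WAT, minus EPA/DHA minus corn oil in BAT. It rests on 16 of the 24 arrays of the series, 4 each from WAT of EPA/DHA-fed mice, WAT of corn-oil-fed mice, BAT of EPA/DHA-fed mice and BAT of corn-oil-fed mice. The other 8 arrays, 4 per tissue, came from mice on a low-fat diet and helped to estimate the spread. All 16 arrays share sex, strain and a high-fat diet. EPA and DHA are eicosapentaenoic and docosahexaenoic acid. The labels do not name the WAT depot, and their extraction text names skeletal muscle although the tissue labels name adipose tissue. Mice had been picked as typical of their diet group in body weight and plasma lipids. Nothing states whether WAT and BAT arrays of 1 number came from 1 mouse, nor that the mice came from separate litters, so p-values measure the spread between these samples.

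White adipocytes store triglyceride in a single large droplet and release leptin and other adipokines, and white fat holds macrophages, eosinophils and other immune cells whose number changes with obesity. Brown adipocytes are packed with mitochondria, burn fatty acids, and make heat through the uncoupling protein Ucp1. EPA and DHA, the long-chain polyunsaturated fatty acids of fish oil, are ligands of PPAR receptors and are known to restrain the lipogenic regulator SREBP in liver, while corn oil is rich in linoleic acid.

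The values are log2 expression per probe as deposited, from 6.95 to 14.79 with a floor near 7, and each gene is shown by its brightest probe. As a check of the tissue labels, the brown-fat gene Ucp1 lay from 7.18 to 10.63 on EPA/DHA arrays of WAT and from 7.11 to 9.38 on its corn-oil arrays, where EPA/DHA replicate 2 and corn-oil replicate 4 stood above the others. In BAT it lay from 13.72 to 14.41 on EPA/DHA and from 13.55 to 14.14 on corn oil. Adipocyte scores, the mean log2 value of 13 adipocyte genes, were 11.12 to 11.31 on EPA/DHA and 11.04 to 11.15 on corn oil in WAT, and 10.56 to 10.83 on EPA/DHA and 10.78 to 10.82 on corn oil in BAT. Mean correlations with arrays of the same tissue were 0.986 to 0.992 in WAT and 0.969 to 0.99 in BAT. The median residual SD per gene was 0.07 in WAT and 0.098 in BAT. Over the 36 genes that passed the test of the tissue difference below, it was 0.128 in WAT and 0.099 in BAT. Arrays give no read depth, and their number limits the precision.

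The EPA/DHA effect differed between the tissues for a small set of named genes. Of 14262 genes tested, 36 passed an adjusted p of 0.05 in limma (0.252% of the genes tested), here termed called. WAT minus BAT was positive for 10 of them (0.0701%) and negative for 26 (0.182%). The 10 included Pdhb of pyruvate oxidation, Uqcrc2 and Atp5c1 of oxidative phosphorylation and the lipogenic gene Thrsp, and the 26 included the antigen-loading genes H2-DMa, H2-DMb1 and H2-DMb2 and the eosinophil-associated ribonucleases Rnase2a, Ear3 and Ear10. All 36 had a larger diet difference in WAT than in BAT. In WAT the EPA/DHA and corn-oil arrays of all 36 did not overlap, against 9.8% of all genes tested. In BAT this held for 3 of the 36, against 3.67% of all genes. The calls were made on these same values, so the counts describe the 36 and give the calls no further support. WAT differences ran from 0.27 to 1.23 among the 10 and from -2.52 to -0.33 among the 26, while BAT differences of the 36 lay between -0.33 and 0.29.

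**Figure D1:**
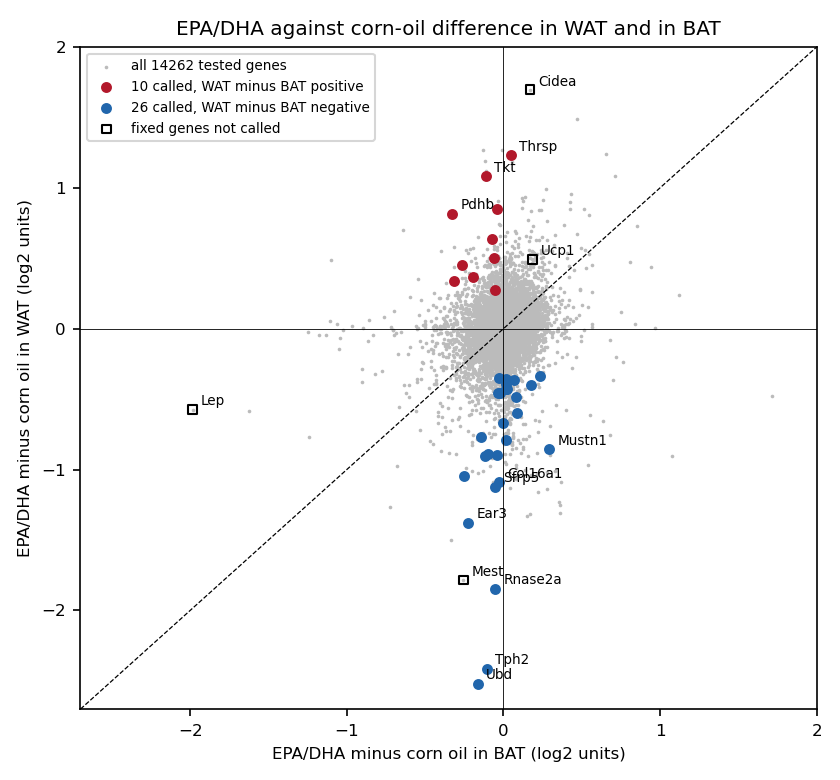
Each point is 1 gene, with EPA/DHA minus corn oil in BAT on the horizontal axis and in WAT on the vertical axis, both in log2 units over 4 arrays per group; the dashed line marks equal differences. The 36 called genes spread along the WAT axis while their BAT differences stay between -0.33 and 0.29, and Lep lies apart at -0.57 in WAT and -1.98 in BAT.

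Tested within each tissue over its 12 arrays, 313 of 13349 genes differed between EPA/DHA and corn oil in WAT (2.34%), with 157 higher and 156 lower on EPA/DHA. With 1 WAT array left out this count was 118 to 311, and it moved by over 1.5 times for 6 of the 8 arrays, all but EPA/DHA replicates 1 and 2. In BAT 0 of 13400 genes did (0%). The smallest adjusted p in BAT was 0.574 by limma, and 668 BAT genes had an unadjusted p under 0.05, where 670 would be expected if no gene changed. These counts do not show that no BAT gene changed, since genes are not independent and small changes can be missed. The median residual SD per gene was larger in BAT (0.098) than in WAT (0.07). Of the 36 genes called for the tissue difference, 35 were also called in WAT alone. The exception was the ceramidase gene Acer3, with -0.33 ± 0.07 in WAT (adjusted p = 0.0506, limma).

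**Figure D2:**
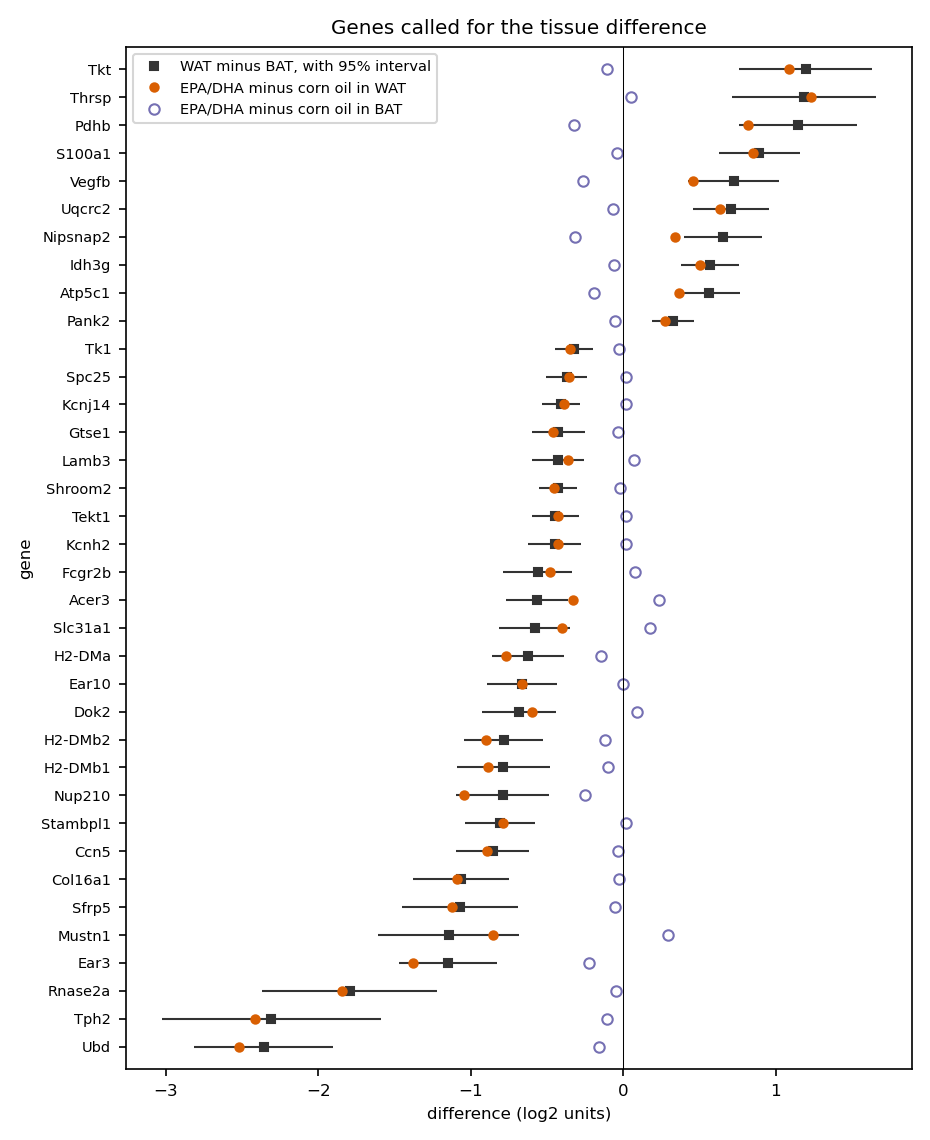
For each of the 36 called genes, the square and line give WAT minus BAT of the EPA/DHA minus corn-oil difference with its 95% interval, the filled circle the WAT difference and the open circle the BAT difference, in log2 units. The largest sizes are those of Tkt (1.196) on the positive side and Ubd (-2.36) on the negative side.

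The 10 genes with a positive tissue difference included 4 that act in pyruvate oxidation, the citric acid cycle and the respiratory chain of mitochondria. Rises and falls given here are of EPA/DHA against corn oil, not against the low-fat diet. In WAT the low-fat mean lay above the corn-oil mean for each of the 10 genes. It was 11.93 for S100a1, 11.44 for Tkt, 12.2 for Thrsp and 9.77 for Pdhb, against 11.002, 10.67, 11.38 and 9.64 on corn oil. On EPA/DHA the WAT means of the same genes were 11.85, 11.76, 12.61 and 10.46. Pdhb, the E1 beta subunit of pyruvate dehydrogenase, which feeds pyruvate carbon into the citric acid cycle, read 10.23, 10.66, 10.51 and 10.45 on EPA/DHA arrays of WAT, against 9.43, 9.58, 9.94 and 9.62 on corn-oil arrays. In BAT it read 11.42, 12.004, 11.73 and 11.62 on EPA/DHA and 12.07, 11.82, 12.05 and 12.13 on corn oil. The WAT arrays on EPA/DHA were all above those on corn oil, whereas 3 of the 4 BAT arrays on EPA/DHA were below every corn-oil array. The tissue difference was 1.14 ± 0.19 (limma adjusted p = 0.00708), made of 0.82 ± 0.12 in WAT and -0.33 ± 0.13 in BAT. Its 2 dimmer probes gave 0.53 (not called) and 0.39 (called).

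Idh3g, a regulatory subunit of the isocitrate dehydrogenase of the citric acid cycle, had 12.73, 12.89, 12.75 and 12.86 on EPA/DHA in WAT and 12.299, 12.21, 12.25 and 12.45 on corn oil. In BAT the values were 13.97, 14.15, 14.09 and 13.898 on EPA/DHA and 14.001, 14.18, 14.08 and 14.101 on corn oil, overlapping and near the top of the scale. The tissue difference was 0.57 ± 0.09 (limma adjusted p = 0.00664), and it kept its call in all 16 fits that each left out 1 array and in the 16 other alternatives. Uqcrc2, a core subunit of respiratory complex III, read 12.73, 13.03, 12.66 and 12.78 in WAT on EPA/DHA and 12.09, 12.09, 12.28 and 12.19 on corn oil. Its BAT values were 14.08, 14.03, 13.97 and 14.12 on EPA/DHA and 14.17, 14.17, 14.001 and 14.14 on corn oil. Uqcrc2 thus rose in WAT, by 0.64 ± 0.08, and its BAT groups overlapped, with a tissue difference of 0.71 ± 0.12 (limma adjusted p = 0.0105).

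Atp5c1, the gamma subunit of the ATP synthase rotor, was separated between the diets in both tissues, with opposite signs. It read 12.52, 12.62, 12.66 and 12.55 in WAT on EPA/DHA, against 12.02, 12.25, 12.23 and 12.38 on corn oil. In BAT it read 13.18, 13.07, 13.23 and 13.24 on EPA/DHA, against 13.29, 13.3, 13.43 and 13.48 on corn oil. All EPA/DHA arrays were above corn oil in WAT and all were below it in BAT, with 0.37 ± 0.07 in WAT, -0.19 ± 0.06 in BAT and a tissue difference of 0.56 ± 0.10 (limma adjusted p = 0.0155). The mitochondrial protein gene Nipsnap2 had a similar pair of differences, 0.34 ± 0.07 in WAT and -0.32 ± 0.09 in BAT, and a tissue difference of 0.65 ± 0.12 (limma adjusted p = 0.0244). Its BAT difference had an unadjusted p of 0.00603 and no call in BAT, and the call for the tissue difference was kept in 8 of 16 fits that each left out 1 array.

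Among the 10 called genes with a positive difference, Tkt and Thrsp had the largest. Larger values that did not pass included Cidea (1.53), Lep (1.41) and Acacb (1.399). Tkt, transketolase of the non-oxidative pentose phosphate pathway, read 11.64, 11.98, 11.53 and 11.88 on EPA/DHA arrays of WAT and 10.75, 10.595, 10.71 and 10.64 on corn-oil arrays. In BAT it read 12.75, 13.05, 12.65 and 12.803 on EPA/DHA and 12.86, 13.004, 12.84 and 12.98 on corn oil. The WAT groups were far apart relative to their spread and the BAT groups overlapped, and the tissue difference was 1.196 ± 0.21 (95% interval 0.76 to 1.63, limma adjusted p = 0.013). Dimmer Tkt probes gave 0.44, 0.36 and -0.02, none called.

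Thrsp, a nuclear regulator of lipogenic genes that responds to thyroid hormone and carbohydrate, read 12.497, 12.49, 12.62 and 12.84 in WAT on EPA/DHA and 11.47, 11.34, 11.14 and 11.56 on corn oil. BAT values were 13.46, 13.78, 13.01 and 13.75 on EPA/DHA and 13.69, 13.18, 13.51 and 13.43 on corn oil. WAT arrays separated completely and BAT arrays did not, with a tissue difference of 1.18 ± 0.23 (limma adjusted p = 0.0286). This call was kept in 8 of 16 leave-one-out fits, and a second Thrsp probe near the floor gave -0.04.

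The remaining positive genes were S100a1, Vegfb and Pank2. S100a1, which encodes a calcium-binding protein, had 11.92, 11.91, 11.65 and 11.95 on EPA/DHA and 11.07, 10.88, 10.91 and 11.16 on corn oil in WAT. In BAT it had 12.49, 12.68, 12.84 and 12.53 on EPA/DHA, against 12.77, 12.59, 12.72 and 12.61 on corn oil. The diets separated in WAT and overlapped in BAT. Its tissue difference of 0.89 ± 0.13 had the smallest adjusted p of the 10 (0.00201, limma). Vegfb, a growth factor of the VEGF family, differed by 0.46 ± 0.09 in WAT and -0.27 ± 0.10 in BAT, a tissue difference of 0.72 ± 0.14 (limma adjusted p = 0.0337) kept in 6 of 16 leave-one-out fits. Pank2, a pantothenate kinase of coenzyme A synthesis, had a tissue difference of 0.33 ± 0.07 (limma adjusted p = 0.0468), which no leave-one-out fit kept.

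**Figure D3:**
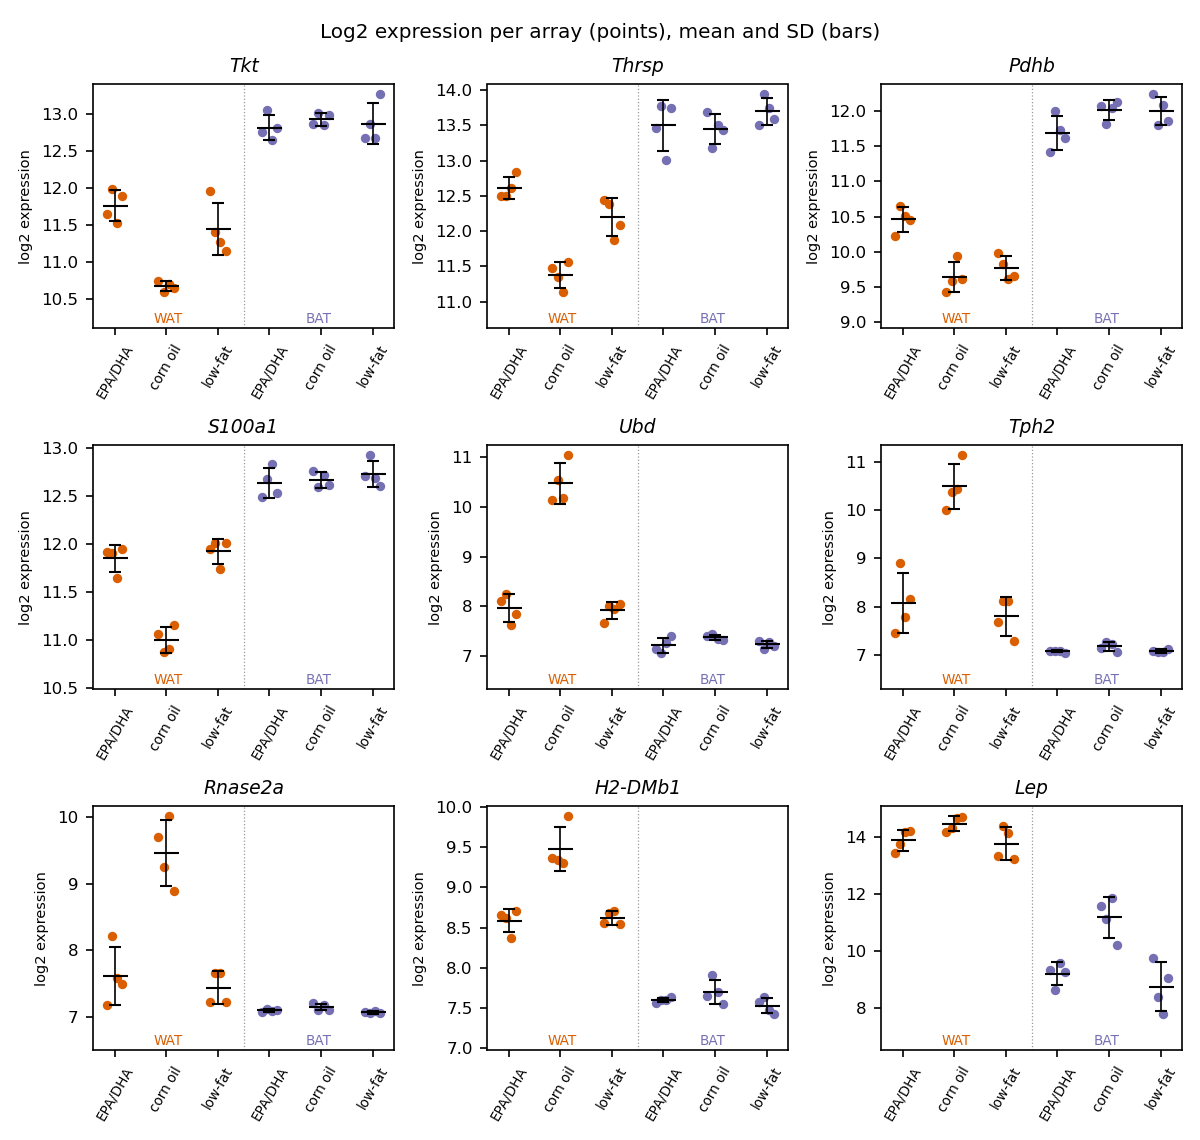
Log2 expression on each array for 9 genes, with the diets EPA/DHA, corn oil and low-fat from left to right in WAT (orange) and then in BAT (purple); points are arrays, bars the mean and SD of 4. Tkt, Thrsp, Pdhb and S100a1 are higher on EPA/DHA than on corn oil in WAT and Ubd, Tph2, Rnase2a and H2-DMb1 lower, with overlapping BAT groups, while Lep separates in BAT.

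Mitochondrial and lipogenic lists had positive medians of the tissue difference, although few of their genes passed the threshold. The lists were chosen with earlier results of these data known. Of 41 oxidative phosphorylation genes tested, 2 were called (Uqcrc2 and Atp5c1), 24 had a positive tissue difference with an unadjusted p under 0.05 and 0 a negative one. Over all genes tested these shares were 3.58% and 4.87%. The list's median tissue difference was 0.31, against -0.002 over all genes, with a median of 0.30 in WAT and -0.04 in BAT. All 41 were positive in WAT and 15 in BAT. Respiratory chain subunits not called but with an unadjusted p under 0.05 included Ndufa9 (0.45 ± 0.10, adjusted p = 0.0946) and Ndufa4 (0.47 ± 0.12, adjusted p = 0.146, both limma).

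In the list of the citric acid cycle and pyruvate dehydrogenase, 2 of 15 tested genes were called, 8 had an unadjusted p under 0.05 with a positive sign, and all 15 were positive. The medians were 0.38 for the tissue difference, 0.41 in WAT and 0.01 in BAT. Suclg2, a subunit of succinyl-CoA ligase, had 0.51 ± 0.07 in WAT and 0.05 ± 0.10 in BAT, and citrate synthase Cs had 0.44 ± 0.14 in WAT and -0.17 ± 0.09 in BAT. Neither passed for the tissue difference (limma adjusted p = 0.251 and 0.254). Mitochondrial fatty acid oxidation had 0 called of 22 genes, 10 with an unadjusted p under 0.05, all positive, and a median of 0.36. Echs1, the enoyl-CoA hydratase of short chains, rose in WAT by 0.59 ± 0.07 (limma adjusted p = 0.00454) and differed by 0.06 ± 0.10 in BAT. Branched-chain amino acid breakdown had 0 called of 19, 5 positive with an unadjusted p under 0.05, and a median of 0.28.

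**Figure D4:**
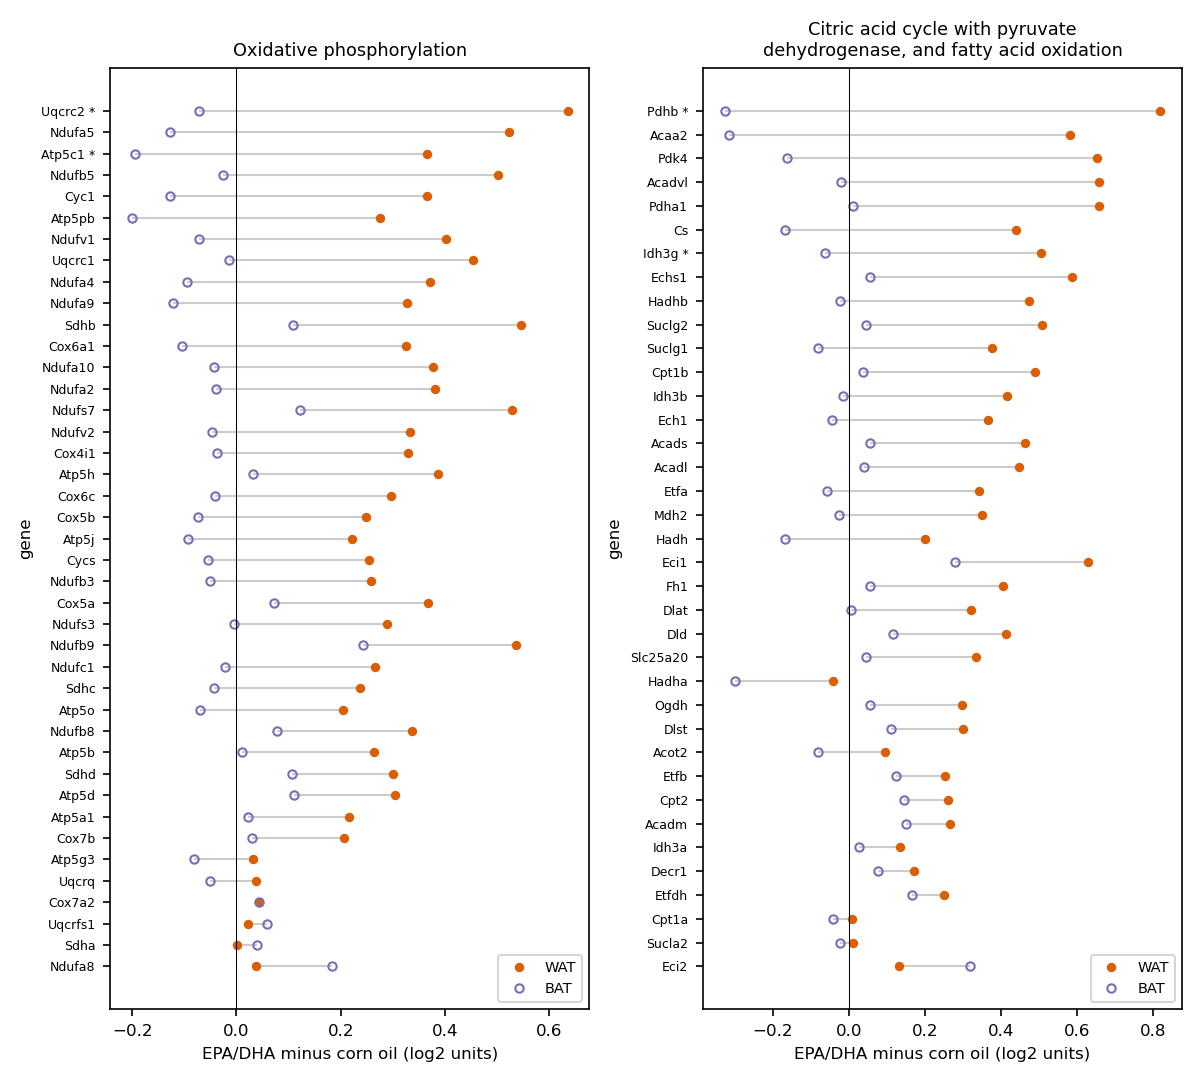
EPA/DHA minus corn oil in log2 units for each tested gene of oxidative phosphorylation (left) and of the citric acid cycle with pyruvate dehydrogenase and mitochondrial fatty acid oxidation (right), in WAT (filled) and BAT (open), sorted by WAT minus BAT; asterisks mark called genes. WAT values lie mostly right of 0 and BAT values on both sides of it.

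The de novo lipogenesis list, which covers the path from citrate to long-chain fatty acids, had 1 called gene of 19 (Thrsp), 6 with a positive unadjusted p under 0.05 and a median of 0.48, the largest median among pathway lists of 6 or more genes. Its medians within tissues were 0.51 in WAT and -0.03 in BAT. Acacb, the mitochondrial acetyl-CoA carboxylase, had 1.27 ± 0.28 in WAT and -0.13 ± 0.15 in BAT with a tissue difference of 1.399 ± 0.33, and pyruvate carboxylase Pcx had 0.64 ± 0.15. Both missed the threshold (limma adjusted p = 0.112 and 0.0995), as did Acly, ATP citrate lyase, with 0.94 ± 0.35 (0.503). Fatty acid synthase Fasn read 7.86, 8.57, 8.75 and 8.46 in WAT on EPA/DHA and 7.85, 7.71, 8.15 and 8.003 on corn oil, overlapping groups with a tissue difference of 0.48 ± 0.29 (limma adjusted p = 0.806). The desaturase Scd1 lay near the top of the scale in all groups, from 14.01 to 14.51 in WAT on EPA/DHA and from 14.09 to 14.55 on corn oil, so differences there can be understated. Its tissue difference was -0.01 ± 0.17, with a sign that changed with the setting.

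In the triglyceride synthesis list 0 of 17 genes were called, 3 positive and 1 negative had an unadjusted p under 0.05, and the median was 0.29. Gpd2, the mitochondrial glycerol phosphate dehydrogenase, had 1.13 ± 0.24 (limma adjusted p = 0.063). Pck1, the glyceroneogenic enzyme, separated in WAT, at 8.24 to 8.89 on EPA/DHA and 7.83 to 8.19 on corn oil, but not in BAT, and its tissue difference of 0.38 ± 0.24 did not pass (limma adjusted p = 0.836).

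2 marker signals that varied between arrays are given beside the mitochondrial and lipogenic genes. The skeletal muscle score over 17 genes in BAT ran from 8.01 to 12.08 on EPA/DHA arrays (median 10.45) and from 9.98 to 11.84 on corn oil (10.84), and in WAT from 7.56 to 7.71 on EPA/DHA and from 7.61 to 7.67 on corn oil. With this score as a covariate 45 genes were called, 35 of them among the 36. The 2 WAT arrays with raised Ucp1 also had the highest WAT readings of Cidea, a brown-fat lipid droplet gene, at 9.19, 12.09, 8.98 and 9.63 on EPA/DHA and 7.56, 7.64, 8.08 and 9.83 on corn oil. Without those 2 arrays 39 genes were called, 28 of them among the 36. Tkt then had a tissue difference of 1.11 and an adjusted p of 0.0586 in limma.

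Among the 26 genes with a negative tissue difference, Ubd had the largest size. It encodes a ubiquitin-like modifier induced by interferon gamma and tumour necrosis factor, which marks proteins for the proteasome. Ubd read 8.11, 8.25, 7.62 and 7.85 in WAT on EPA/DHA, against 10.14, 10.55, 10.18 and 11.04 on corn oil, and 7.13, 7.07, 7.26 and 7.41 in BAT on EPA/DHA, against 7.397, 7.45, 7.35 and 7.32 on corn oil. The WAT groups were wide apart and the BAT groups overlapped near the floor. The tissue difference was -2.36 ± 0.22 (95% interval -2.81 to -1.901, limma adjusted p = 1.8e-05), with -2.52 ± 0.20 in WAT and -0.16 ± 0.07 in BAT. On the low-fat diet Ubd averaged 7.92 in WAT and 7.23 in BAT.

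Tph2, the neuronal form of tryptophan hydroxylase, the first step of serotonin synthesis, had 7.45, 8.91, 7.79 and 8.16 on EPA/DHA arrays of WAT and 10.01, 10.37, 10.45 and 11.13 on corn-oil arrays. All 8 BAT arrays of the high-fat diets read between 7.05 and 7.27, at the floor. The tissue difference was -2.31 ± 0.35 (limma adjusted p = 0.0033), nearly all of it from WAT, and low-fat WAT averaged 7.797. No other gene of the serotonin list was called, of 7 tested, and the list's median was 0.01.

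Eosinophil-associated ribonucleases are granule enzymes of a mouse gene family that expanded by duplication. Of 6 with a probe, 3 passed the filter on dim probes, Rnase2a and Ear10 through WAT alone, where they are brighter. These 3 were called, a count that the filter bears on. Rnase2a had 7.18, 8.22, 7.58 and 7.498 in WAT on EPA/DHA and 9.701, 9.26, 10.02 and 8.89 on corn oil, and 7.08 to 7.12 in BAT on EPA/DHA, against 7.104 to 7.202 on corn oil. Ear3 read 9.401, 9.78, 9.24 and 9.37 in WAT on EPA/DHA and 10.74, 10.75, 10.97 and 10.84 on corn oil, and 7.22 to 7.63 in BAT on EPA/DHA, against 7.46 to 7.702 on corn oil. For both genes every WAT array on EPA/DHA was below every WAT corn-oil array, and the BAT groups overlapped near the floor.

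The tissue differences were -1.79 ± 0.28 for Rnase2a (limma adjusted p = 0.00458), -1.15 ± 0.15 for Ear3 (0.00144) and -0.66 ± 0.11 for Ear10 (0.00856). Dimmer Ear3 probes gave -0.34, called, and -0.13, not called. Members of this family are closely related and probe sequences were not aligned, so which member each probe reads is uncertain. The likeness extends to the promoters. The stretches below, from RefSeq (GRCm38.p6), lie at chr14:43923667-43923775 on the minus strand and chr14:51256223-51256331 on the minus strand, with the interferon-response core GAAANNGAA in capitals. Without gaps they share 91 of 109 bases (83.5%).
Ear10: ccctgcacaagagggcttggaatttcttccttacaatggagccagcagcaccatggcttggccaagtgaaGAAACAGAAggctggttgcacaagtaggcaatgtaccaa
Rnase2a: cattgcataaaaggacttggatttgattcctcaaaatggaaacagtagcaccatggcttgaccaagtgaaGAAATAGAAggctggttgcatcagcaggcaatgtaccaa

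H2-DMa, H2-DMb1 and H2-DMb2 encode the chains of H2-DM, which exchanges peptides on MHC class II molecules in antigen-presenting cells. H2-DMa read 8.83, 8.97, 8.74 and 9.06 in WAT on EPA/DHA and 9.62, 9.54, 9.66 and 9.87 on corn oil, and in BAT 7.75, 7.78, 7.77 and 7.84 on EPA/DHA, against 7.88, 7.98, 8.05 and 7.81 on corn oil. H2-DMb1 read 8.66, 8.62, 8.37 and 8.701 in WAT on EPA/DHA and 9.37, 9.34, 9.31 and 9.89 on corn oil, and in BAT 7.56, 7.59, 7.604 and 7.63 on EPA/DHA, against 7.64, 7.91, 7.696 and 7.54 on corn oil. In both genes the WAT groups were apart and the BAT groups overlapped, EPA/DHA having the lower mean in each tissue. Tissue differences were -0.63 ± 0.11 for H2-DMa (limma adjusted p = 0.0178), -0.79 ± 0.15 for H2-DMb1 (0.021) and -0.785 ± 0.125 for H2-DMb2 (0.00652). A second H2-DMa probe, with a mean of 8.10, gave -0.46 and was not called (limma adjusted p = 0.286), and a second H2-DMb2 probe near the floor gave -0.002. Over all called genes, 16 had another tested probe, and of these 25 probes 2 were called, 21 had the sign of the brightest and 17 had a mean under 7.5.

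H2-DMb1 and H2-DMb2 are neighbouring copies, and the promoter stretches show how alike they are. MHC class II promoters carry an X and a Y box, and the Y box is a CCAAT sequence, here on the reverse strand and in capitals (ATTGG). The stretches lie at chr17:34153060-34153164 on the plus strand and chr17:34145089-34145193 on the plus strand (RefSeq, GRCm38.p6), and 91 of 105 bases are the same without gaps (86.7%).
H2-DMb1: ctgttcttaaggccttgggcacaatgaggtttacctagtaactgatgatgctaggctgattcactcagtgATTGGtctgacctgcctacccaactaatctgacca
H2-DMb2: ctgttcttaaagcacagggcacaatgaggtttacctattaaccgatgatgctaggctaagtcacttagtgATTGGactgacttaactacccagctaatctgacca

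Motifs were searched on both strands of RefSeq promoter windows from 250 bases before to 50 bases after a start, held for 11432 of the tested genes and 31 called ones, all windows of a gene being searched together. GAAANNGAA was found in 4 of 22 genes with a negative difference (18.2%), in 1 of 9 with a positive one (11.1%) and in 8.64% of all. The 4 genes were Ear10, Rnase2a, Sfrp5 and Spc25, and the matches of Ear10 and Rnase2a lie in the alike stretches printed above, so they are not independent. The E-box CACGTG was in 1 of 22 (4.55%) and 0 of 9, against 10.8% of all, and the CRE TGACGTCA in 0 of either, against 3.03%. The PPAR DR1 element, searched by its exact consensus, was in 0 of either and in 0.0437% of all. CCAAT, added after the values were seen, was in 14 of 22 (63.6%) and 4 of 9 (44.4%), against 42.2% of all. The 14 include the related pairs H2-DMb1 with H2-DMb2 and Ear10 with Rnase2a, counted as separate genes. No match of another motif overlapped a printed one, and a match is a description of letters only.

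The MHC class II list had 3 called genes of 16, 7 with a negative unadjusted p under 0.05 and 0 positive, and a median of -0.35. Its medians within tissues were -0.45 in WAT and -0.08 in BAT, and 15 of 16 genes had a negative tissue difference. Cd74, the invariant chain, fell in WAT, with -0.89 ± 0.12 (limma adjusted p = 0.00555) and had -0.30 ± 0.18 in BAT, with a tissue difference of -0.59 ± 0.22 (0.512). Ciita, the master regulator of class II transcription, had a tissue difference of -0.36 ± 0.12 (0.42). Neither tissue difference passed. In the MHC class I list, 1 of 16 genes was called, Ubd itself, and the median was -0.004.

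Dok2, an adaptor of haematopoietic cells, and Fcgr2b, the inhibitory Fc receptor of B cells and myeloid cells, were also called, with -0.68 ± 0.12 (limma adjusted p = 0.0105) and -0.56 ± 0.11 (0.0286). They are outside the rule for naming genes, as are Acer3, Slc31a1, Kcnh2, Tekt1, Lamb3, Gtse1, Kcnj14, Spc25 and Tk1, and are given since they complete the 36. Macrophage scores over 21 genes were 8.80 to 9.49 on EPA/DHA and 9.19 to 9.61 on corn oil in WAT, and 7.69 to 8.04 on EPA/DHA and 7.76 to 8.0 on corn oil in BAT. Of 20 macrophage genes tested, 0 were called, 1 had a negative unadjusted p under 0.05, and the median was -0.14. In such bulk samples fewer cells of a type and less RNA per cell cannot be told apart, and the part of cell numbers in these differences was not tested.

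Inflammatory cytokines and chemokines had 0 called of 19, 3 negative with an unadjusted p under 0.05 and a median of -0.09. The monocyte chemokines Ccl7 and Ccl8 had -1.14 ± 0.30 and -1.38 ± 0.40 (limma adjusted p = 0.179 and 0.281). In the acute-phase list 0 of 14 were called, 3 negative had an unadjusted p under 0.05, and the median was -0.25. Lbp, which binds lipopolysaccharide, fell in WAT, with -1.498 ± 0.27 (limma adjusted p = 0.0221), differed by -0.33 ± 0.09 in BAT, and had a tissue difference of -1.17 ± 0.29 (0.145) that did not pass.

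Col16a1 was the called member of the extracellular matrix list. Col16a1, a fibril-associated collagen, read 8.62, 8.77, 8.31 and 8.496 in WAT on EPA/DHA and 9.71, 9.495, 9.56 and 9.81 on corn oil. In BAT it read 7.61, 7.56, 7.48 and 7.88 on EPA/DHA, against 7.498, 7.69, 7.92 and 7.52 on corn oil. Its tissue difference was -1.06 ± 0.15 (limma adjusted p = 0.00201). Sfrp5, a secreted antagonist of Wnt signalling released by fat, read 7.58, 7.64, 7.84 and 7.71 in WAT on EPA/DHA, against 9.05, 8.51, 8.97 and 8.72 on corn oil. Its BAT values ran from 7.09 to 7.19 on EPA/DHA and from 7.14 to 7.28 on corn oil, at the floor, and the tissue difference was -1.07 ± 0.18 (limma adjusted p = 0.0105). In both genes every WAT array on EPA/DHA read below every WAT array on corn oil.

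Ccn5, a matricellular CCN protein linked to Wnt signalling, read 7.16, 7.31, 7.28 and 7.27 in WAT on EPA/DHA and 8.21, 7.84, 8.26 and 8.28 on corn oil. It was at the floor in BAT, at 7.06 to 7.24 on EPA/DHA and 7.09 to 7.22 on corn oil. The tissue difference of -0.86 ± 0.12 (limma adjusted p = 0.00144) kept its call in all 16 leave-one-out fits and the 16 other alternatives, as did those of Ubd, Ear3, Stambpl1, Shroom2 and Idh3g. Lamb3, a laminin chain outside the lists, as Ccn5 is, had -0.43 ± 0.08 (0.0254). Of 25 extracellular matrix genes tested, 1 was called, 6 had a negative unadjusted p under 0.05, 0 a positive one, and 24 were negative, with a median of -0.20. Timp1, an inhibitor of metalloproteinases, had -0.68 ± 0.22 and the collagen chain Col6a1 -0.59 ± 0.26, neither called (limma adjusted p = 0.34 and 0.644).

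Scores of both vascular cell types were lower on EPA/DHA in WAT, with no overlap of the diets, beside these genes. Taken singly, 9.8% of all tested genes did not overlap there. The tested members had a median WAT difference of -0.055 for smooth muscle, with 2 of 7 positive, and -0.204 for endothelial genes, with 3 of 14 positive. The smooth muscle score over 8 genes was 8.38 to 8.71 on EPA/DHA and 8.77 to 8.92 on corn oil in WAT, and 8.22 to 8.53 on EPA/DHA and 8.30 to 8.61 on corn oil in BAT. The endothelial score over 14 genes was 9.49 to 9.54 on EPA/DHA and 9.66 to 9.76 on corn oil in WAT, and 9.03 to 9.32 on EPA/DHA and 9.29 to 9.35 on corn oil in BAT. Of 7 smooth muscle and 14 endothelial genes tested, 0 were called for the tissue difference by limma, 2 smooth muscle genes had a negative unadjusted p under 0.05, and the medians were -0.05 for smooth muscle and -0.08 for endothelial genes. The part of these scores in the falls of WAT was not tested.

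Mustn1, a nuclear protein of muscle and bone, was the called gene with the highest BAT difference. It read 8.54, 8.74, 8.49 and 8.71 in WAT on EPA/DHA and 9.32, 9.67, 9.45 and 9.45 on corn oil, and 8.02, 8.27, 7.79 and 8.77 in BAT on EPA/DHA, against 7.68, 7.84, 8.16 and 7.99 on corn oil. WAT arrays on EPA/DHA were all lower, BAT arrays on EPA/DHA had the higher mean but overlapped, and the tissue difference was -1.15 ± 0.22 (limma adjusted p = 0.0292). The call was kept in 6 of 16 leave-one-out fits. A second Mustn1 probe gave -0.82 and was not called. The muscle gene Ckm read 9.39, 11.15, 7.54 and 12.09 in BAT on EPA/DHA, and 9.63, 9.74, 12.01 and 11.62 on corn oil. Within each of these diets Mustn1 and Ckm ranked the BAT arrays in the same order. The part of muscle signal in the Mustn1 difference was not tested.

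Acer3, an alkaline ceramidase, and Slc31a1, the copper importer of the plasma membrane, separated in both tissues with opposite signs. Acer3 read 8.26, 8.36, 7.98 and 8.16 in WAT on EPA/DHA and 8.6, 8.56, 8.41 and 8.52 on corn oil, and 8.31, 8.34, 8.26 and 8.301 in BAT on EPA/DHA, against 8.09, 7.88, 8.13 and 8.17 on corn oil. The tissue difference was -0.57 ± 0.10 (limma adjusted p = 0.0105), with 0.23 ± 0.06 in BAT. A second Acer3 probe, with a mean of 7.58, gave -0.02 in WAT, 0.20 in BAT and -0.215 between them. It was not called (limma adjusted p = 0.565), so the fall of Acer3 in WAT rests on the brightest probe. Slc31a1 had -0.40 ± 0.08 in WAT, 0.18 ± 0.07 in BAT and -0.58 ± 0.11 between them (0.0286), a call kept in 5 of 16 leave-one-out fits. With Atp5c1 these were the 3 called genes whose BAT groups did not overlap.

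Spc25, Gtse1 and Tk1, which are in none of the lists, were called with small differences near the floor. Spc25, of the kinetochore, had -0.37 ± 0.06 (limma adjusted p = 0.0105), Gtse1, a microtubule-binding protein of the G2 phase, -0.43 ± 0.08 (0.0292), and Tk1, the thymidine kinase of S phase, -0.32 ± 0.06 (0.0207). WAT means in this order were 7.37, 7.27 and 7.25 on EPA/DHA, against 7.73, 7.73 and 7.599 on corn oil. In BAT the means were 7.096, 7.13 and 7.13 on EPA/DHA and 7.08, 7.17 and 7.16 on corn oil. The cell cycle list had 0 called of 13, 6 negative with an unadjusted p under 0.05 and a median of -0.12.

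The rest of the 26 were Stambpl1, a deubiquitinase (-0.81 ± 0.11, limma adjusted p = 0.0016), Nup210 of the nuclear pore (-0.79 ± 0.15, 0.021), Shroom2, which organises actin (-0.43 ± 0.06, 0.00164), the potassium channels Kcnh2 (-0.45 ± 0.08, 0.022) and Kcnj14 (-0.41 ± 0.06, 0.00323), and the tektin gene Tekt1 (-0.45 ± 0.07, 0.00932). Stambpl1 read 7.68, 7.77, 7.73 and 7.83 in WAT on EPA/DHA and 8.42, 8.52, 8.78 and 8.47 on corn oil, and its BAT arrays lay from 7.21 to 7.34 on EPA/DHA and from 7.11 to 7.41 on corn oil. Nup210 had -1.04 ± 0.12 in WAT and -0.25 ± 0.07 in BAT (unadjusted p = 0.0058 in BAT, limma, not called). Kcnj14 and Tekt1, like Spc25, passed the filter through WAT alone, where they are brighter, which bears on their calls. Their WAT means were 7.33 and 7.23 on EPA/DHA and 7.72 and 7.65 on corn oil. In BAT they averaged 7.07 and 7.08 on EPA/DHA and 7.06 each on corn oil, at the floor.

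The level of a gene in BAT set limits on many of the 26. Over the 12 arrays of each tissue, all 26 averaged higher in WAT than in BAT. These means include the arrays on which the calls were made. On EPA/DHA alone Nup210 averaged 7.51 in WAT and 7.58 in BAT, and Acer3 8.19 in WAT and 8.3 in BAT. Of the 26, 17 had a BAT mean under 7.5, where 51.5% of all tested genes lay. For those 17 the floor limits any fall that BAT could show. None of the 10 had such a BAT mean, which ran from 8.95 to 14.1, and 9 of the 10 averaged lower in WAT than in BAT, against 52.7% of all tested genes. The signs of the WAT and BAT differences were opposite for 20 of the 36, that is 9 of the 10 and 11 of the 26. Over all tested genes 52.9% had the same sign, and a call on WAT minus BAT favours opposite signs. In BAT 10 of the 36 had an unadjusted p under 0.05 by limma, against 668 of 13400 genes, and 5 were too dim there to be tested. Ubd, Tph2, Ear3 and Nup210 had such a p with the same sign in both tissues. Pdhb, Vegfb, Nipsnap2, Atp5c1, Acer3 and Slc31a1 had it with opposite signs. The calls on WAT minus BAT used these same BAT values, so the count of 10 gives no further support.

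Seen from the WAT side, the 313 genes called there with all arrays (118 to 311 with 1 WAT array left out) mostly had the same sign in BAT at a much smaller size. The sign was the same for 223 of them (71.2%), against 52.9% of all tested genes. The 157 that rose in WAT had a median of 0.38 there and 0.06 in BAT, and the 156 that fell had -0.41 (median) in WAT and -0.05 in BAT. These genes were picked by their WAT values, which favours large sizes in WAT but not in BAT. The contrast in size is therefore partly built in. Over all tested genes the median absolute difference was 0.042 in WAT and 0.044 in BAT. In BAT 15 of the 157 had an unadjusted p under 0.05 in the same direction and 4 in the opposite one. For the 156 these counts were 16 and 1, and 67 of the 156 had a BAT mean under 7.5. Across all tested genes the WAT and BAT differences, which share no array, had a correlation of 0.166, given as a description since genes are not independent.

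On the BAT side, leptin had the largest difference of the genes given throughout. Lep, the adipokine that reports fat mass, read 13.42, 13.73, 14.14 and 14.21 in WAT on EPA/DHA, against 14.17, 14.29, 14.64 and 14.703 on corn oil, and 9.33, 8.63, 9.55 and 9.25 in BAT on EPA/DHA, against 11.56, 11.11, 11.83 and 10.19 on corn oil. WAT groups overlapped close to the top of the scale, and BAT groups did not overlap. The differences were -0.57 ± 0.28 in WAT and -1.98 ± 0.44 in BAT (unadjusted p = 8.6e-04, limma, not called). The tissue difference of 1.41 ± 0.54 did not pass (95% interval 0.28 to 2.54, limma adjusted p = 0.529), and the low-fat means were 13.75 in WAT and 8.74 in BAT.

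Mest, an imprinted gene that tracks fat expansion in mice, had 8.102, 9.95, 9.65 and 9.18 in WAT on EPA/DHA, against 11.17, 10.19, 11.44 and 11.22 on corn oil, and 7.11 to 7.17 in BAT on EPA/DHA, against 7.07 to 7.68 on corn oil. WAT groups were apart, but the spread between arrays was wide and the tissue difference of -1.53 ± 0.53 did not pass (limma adjusted p = 0.432). 2 further Mest probes gave -1.75 and -1.24, also not called. Adipoq, which encodes adiponectin, differed by -0.12 ± 0.13 between tissues (95% interval -0.39 to 0.16), at the top of the scale in both. Among 17 adipokine and adiposity genes 1 was called (Sfrp5), 3 positive and 2 negative had an unadjusted p under 0.05, and the median was 0.05.

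No brown-fat identity gene passed the test for the tissue difference. Of 22 tested, 0 were called, 2 positive and 1 negative had an unadjusted p under 0.05, and the median was 0.07. Ucp1 had a tissue difference of 0.31 ± 0.81 with a 95% interval of -1.38 to 2.001, and its sign turned to -0.50 without WAT EPA/DHA replicate 2. Cidea had 1.53 ± 0.74 (95% interval -0.02 to 3.08, limma adjusted p = 0.7), with the WAT spread already given. The intervals leave differences of over 1 log2 unit in either direction possible for Ucp1.

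**Figure D5:**
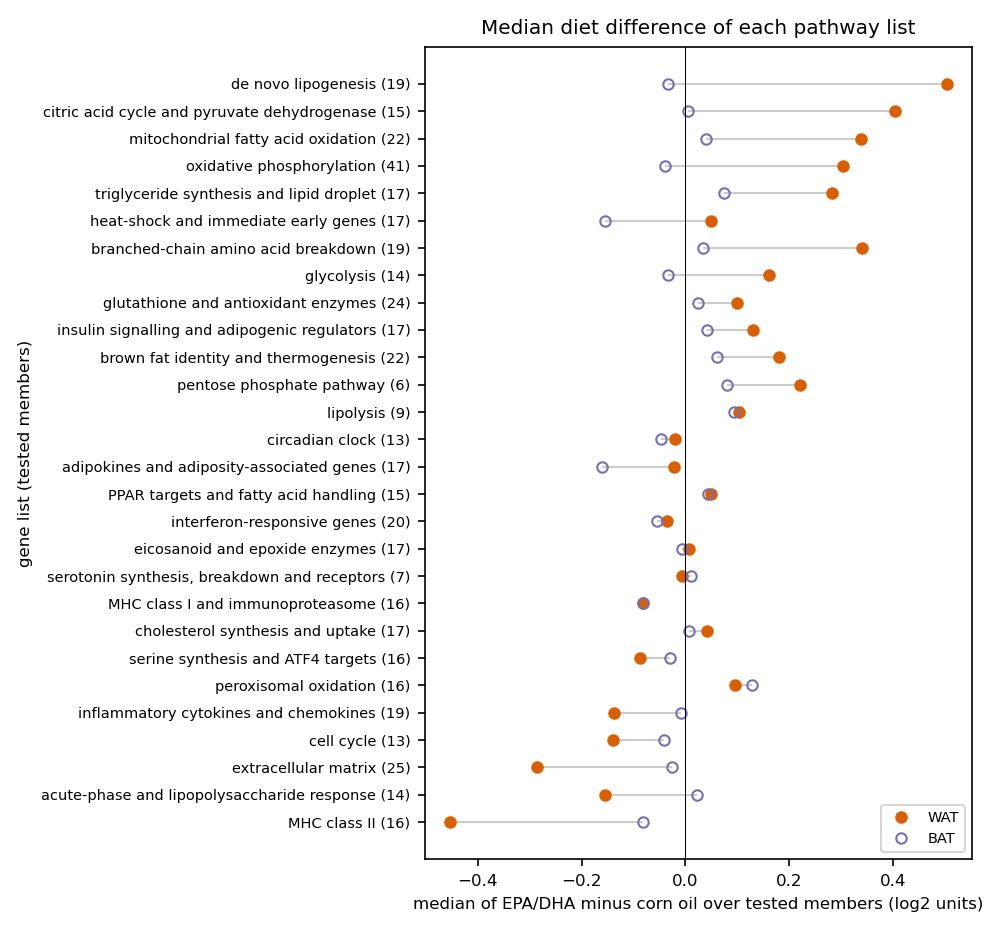
Median over the tested members of EPA/DHA minus corn oil, in log2 units, for the 28 pathway lists of at least 6 tested genes, in WAT (filled) and BAT (open), sorted by the median tissue difference. De novo lipogenesis stands at 0.51 in WAT and -0.03 in BAT, and MHC class II at -0.45 in WAT and -0.08 in BAT.

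Cholesterol synthesis and uptake had 0 called of 17 and 0 with an unadjusted p under 0.05, with a median of -0.01. Circadian clock genes (13) and heat-shock and immediate early genes (17) likewise had 0 called and 0 with an unadjusted p under 0.05, although the median of the heat-shock list was 0.05 in WAT and -0.15 in BAT. Insig1, which retains SREBP in the endoplasmic reticulum and was chosen after its values were seen, was called only at a dimmer probe, with 0.89 ± 0.17 (limma adjusted p = 0.0295). It was 1 of 8 genes called only at a probe other than the brightest. At the level of probes 58 were called, 15 positive and 43 negative, and 11 of them had no gene name here. The unnamed probes with the smallest p were ILMN_2868480, at -1.38 ± 0.13, and ILMN_1225050, at -1.15 ± 0.11 (limma adjusted p = 1.8e-05 for both).

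The liver-gene score over 19 genes was 9.0 to 10.79 on EPA/DHA and 9.08 to 11.38 on corn oil in WAT, and 7.46 to 8.25 on EPA/DHA and 7.32 to 7.86 on corn oil in BAT. Alb, the albumin gene, lay near the floor, from 7.02 to 7.10 on EPA/DHA and 7.04 to 7.13 on corn oil in WAT, and from 7.03 to 7.10 on EPA/DHA and 7.02 to 7.06 on corn oil in BAT. Apoa2, Ttr and Mup2, other liver genes, were bright in WAT and varied widely between arrays of 1 diet. In WAT on EPA/DHA, Apoa2 ran from 10.2 to 13.77, Ttr from 10.26 to 12.89 and Mup2 from 12.36 to 14.62. In WAT on corn oil they ran from 10.58 to 14.44, 10.54 to 13.82 and 12.8 to 14.63. The list's median tissue difference was -1.27, 0 of its 16 tested genes were called, and 2 had an unadjusted p under 0.05. With this score as a covariate in WAT, 35 genes were called for the tissue difference, 32 of them among the 36, and 195 in WAT alone. The skeletal muscle list had a median of 0.62, from -0.01 in WAT and -0.68 in BAT, with 0 of 17 called and 0 with an unadjusted p under 0.05.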

How the data were processed

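RNA of WAT and BAT was hybridised to Illumina arrays. The authors deposited 1 log2 value per probe and array, and the submitters' processing notes name lumi 2.18.0. Ranked values were equal between arrays to within 0.00694, as quantile normalised values are. The labels do not say whether the log2 scale is variance-stabilised, and detection calls were not used. Of 45281 probes, 34885 had 1 symbol, 18 several and 10378 none here, and 34818 matched a RefSeq gene (GRCm38.p6). A gene is its probe with the highest mean over 24 arrays.

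Limma 3.58.1 (R 4.3.3) fitted 1 mean per group. The tissue difference was fitted on 24 arrays and the 29493 probes above the 40th percentile in either tissue (7.107 in WAT, 7.108 in BAT), and each tissue's own difference on its 12 arrays and 27168 probes. Moderated tests were two-sided, Benjamini-Hochberg adjusted over the kept probes, with a threshold of 0.05. Differences are in log2 units ± SE, and each group held 4 arrays.

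Named genes are, among called genes, the 12 largest differences each way, the 5 smallest p and up to 3 members per list, with 10 genes always given (Lep, Adipoq, Ucp1, Fasn, Scd1, Mest, Ubd, Thrsp, Pck1 and Cidea). The comparison, lists and naming rule were chosen with earlier results of these data known, so lists are described by counts and medians with no test. Of the lists' 728 genes, 660 had a probe. Marker scores average a list's members per array. The macrophage gene Cd68 is not reported. The highest correlation of 2 arrays was 0.9958, and none was a duplicate. Replicate numbers were not taken as pairs, since nothing states that a number marks 1 mouse. Deviations of same-numbered WAT and BAT arrays of 1 diet correlated between -0.19 and 0.07, and those of different diets of 1 tissue between -0.32 and 0.44. Such correlations cannot settle whether arrays share a mouse, because 2 tissues of 1 mouse can deviate in different genes. The pipeline was tested on simulated data.

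Alternatives were no filter, the 60th percentile, a filter in both tissues, renewed quantile normalisation, median centring, a trended robust prior, array weights, 1 weight per tissue, the 16 high-fat arrays alone, means over a gene's probes, liver or muscle scores as covariates, a replicate block, and leaving out each array. A fit without 2 WAT arrays and one with both scores were added after seeing the data.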

Additional observations from a re-analysis of the deposited data

Results flagged for a closer look

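A difference between WAT and BAT in the EPA/DHA minus corn-oil effect, tested as an interaction in limma, flags all 36 called genes. It was positive for Tkt (1.20), Thrsp (1.18), Pdhb (1.14), S100a1 (0.89), Vegfb (0.72), Uqcrc2 (0.71), Nipsnap2 (0.65), Idh3g (0.57), Atp5c1 (0.56) and Pank2 (0.33). It was negative for Ubd (-2.36), Tph2 (-2.31), Rnase2a (-1.79), Ear3 (-1.15), Mustn1 (-1.15), Sfrp5 (-1.07), Col16a1 (-1.06), Ccn5 (-0.86), Stambpl1 (-0.81), Nup210 (-0.79), H2-DMb1 (-0.79), H2-DMb2 (-0.78), Dok2 (-0.68), Ear10 (-0.66) and H2-DMa (-0.63). It was also negative for Slc31a1 (-0.58), Acer3 (-0.57), Fcgr2b (-0.56), Kcnh2 (-0.45), Tekt1 (-0.45), Shroom2 (-0.43), Lamb3 (-0.43), Gtse1 (-0.43), Kcnj14 (-0.41), Spc25 (-0.37) and Tk1 (-0.32). Standard errors and adjusted p-values stand with the comparison above.

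By Dixon's test, 11 of 176 groups of 4 arrays held an array far from the other 3, where chance alone flags about 1 in 20 groups. In WAT on EPA/DHA these were S100a1 in replicate 3 (11.65), Nipsnap2 in replicate 1 (8.38), Adipoq in replicate 4 (14.42) and Ucp1 in replicate 2 (10.63). In WAT on corn oil they were Ccn5 in replicate 2 (7.84), H2-DMb1 in replicate 4 (9.89), Ucp1 in replicate 4 (9.38) and Kcnj14 in replicate 1 (7.64). In BAT on EPA/DHA, replicate 4 stood apart for Tph2 (7.05), Ear3 (7.63) and Kcnj14 (7.12), all close to the floor. Replicate 2 of WAT on EPA/DHA and replicate 4 of WAT on corn oil were also the highest for Cidea in their groups.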

How the results depend on the processing

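Against 36 called genes, 21 passed with 1 weight per tissue, 14 of them negative, and the 16 high-fat arrays alone gave 53, 17 of them positive. The replicate block by diet and number left 12, of which 4 were positive and 8 negative, 11 of them shared with the 36. Nothing in the labels says that a number marks 1 mouse. The replicate block by tissue and number left 26. Leaving out 1 array gave 23 to 45 called genes, 6 to 13 positive and 17 to 34 negative, with the fewest without BAT corn-oil replicate 1. Of the 36, 22 kept their call in all 16 of these fits. The 14 that did not were H2-DMa (14 of 16), H2-DMb1 (12), Nup210 (11), Tk1 (10), Fcgr2b and Lamb3 (9 each), Kcnh2, Nipsnap2 and Thrsp (8 each), Gtse1 (7), Mustn1 and Vegfb (6 each), Slc31a1 (5) and Pank2 (0). The count in WAT, 313, was 497 with probe means, 195 with the liver score, 118 to 311 with 1 array left out (6 of the 8 WAT arrays, all but EPA/DHA replicates 1 and 2, moved it over 1.5 times) and 192 without both raised-Ucp1 arrays of WAT. In BAT limma called 0 genes, with 668 at an unadjusted p under 0.05, and 0 under every alternative run there. The other alternatives for the tissue difference gave 30 to 47 genes. Signs turned for Scd1 (-0.012), with 0.01 under array weights, 0.014 with the muscle score, 0.155 without the 2 raised-Ucp1 arrays and -0.105 to 0.095 with 1 array left out. Ucp1 (0.311) ran from -0.502 to 0.87 with 1 array left out, the negative value being without WAT EPA/DHA replicate 2. Over the named genes 1191 results stayed on their side of the threshold and 201 lost it, while 11 changed sign, all of Scd1 or Ucp1.

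The floor near 7 limits falls in BAT, and the top of the scale limits rises of Scd1, Adipoq, Lep and the brightest BAT genes. The number of arrays, and not depth, limits the precision. Which member of the Ear and Rnase2a or H2-DMb families a probe reads was not settled, since probe sequences were not aligned. Where alternatives changed a call, the cause was not tested.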
